A study of Mus musculus with 124 samples.

Results

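Among the 17108 named genes measured in mouse cerebral cortex, 9 were examined for their course through 6 h of sleep deprivation and the days after it: Adh1, Cfap52, Lrrc29, Bace2, Pla2g4e, Abra, Cldn22, Hes3 and Cdhr3. They were selected on the cortex values themselves, for large falls from undisturbed mice at 6 h after light onset to mice at the end of deprivation, so that contrast describes them and is not evidence about them. Cortex and liver of 62 mice, 11 to 12 weeks old, fed freely and housed in a cycle of 12 h light and 12 h darkness, were each sequenced as 1 library per tissue. The sources used here give no strain, sex or genotype, and no allele or drug is named for any group. The control arm was 26 undisturbed mice at zeitgeber time (ZT, hours from light onset) 0 (n = 8), 3 (n = 3), 6 (n = 5), 12 (n = 5) and 18 (n = 5). The other arm was 36 mice kept awake for 6 h from light onset by gentle handling, in groups of 3. Their times count hours from light onset on the day before deprivation: T27 after 3 h of deprivation and T30 at its end, then in recovery T36 and T42 on the same day, T48, T54, T60 and T66 on the next, T72 and T78 on the day after that, and finally T192 and T198. Each deprived group was set against controls taken at the matching time of day. Handling and lost sleep came together in the deprived mice and cannot be told apart.

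The genes belong to unrelated families. Adh1 is a class I alcohol dehydrogenase that oxidises ethanol and retinol and is abundant in liver. Bace2 is an aspartyl protease related to the beta-secretase Bace1, and Pla2g4e is a cytosolic phospholipase A2 relative that transfers acyl chains to make the precursors of N-acylethanolamines, lipids that include an endocannabinoid. Cfap52 is a protein of motile cilia, Cdhr3 a cadherin-related surface protein known from ciliated airway cells, and Cldn22 a claudin, a member of the family that seals tight junctions. Lrrc29 is a leucine-rich repeat protein of the F-box family, Hes3 a basic helix-loop-helix repressor linked to Notch signalling and neural stem cells, and Abra an actin-binding protein that stimulates the transcription factor Srf in muscle.

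Values are log2 CPM, that is log2 of a gene's share of the reads of its library, and a difference of 1 is a 2-fold change. Counts and depth cannot be recovered from them, and the 9 genes lay low. By mean log2 CPM, which is not per gene length and so speaks of the reads behind a value and not of transcripts, 4 of 9 were in the lowest 10% of cortex genes and 7 of 9 in the lowest 25%. The lowest were Cfap52 (mean −1.94) and Adh1 (−1.76), and Pla2g4e (4.13) was near the middle of all genes. By level the tissue markers matched the labels: Slc17a7, the glutamate transporter of cortical excitatory neurons, ranged from 9.99 to 10.28 over the 62 cortex libraries. Alb, the albumin of hepatocytes, ranged from 15.87 to 16.56 in liver and widely in cortex, from −5.80 to 3.61 (median −3.80). The 2 measured hepatocyte markers summed to 1.44 to 14.8 CPM at T27 and 1.17 to 11.9 at T60 in cortex. At T30 the sum was 1.12 to 2.73 and at ZT6 0.97 to 3.36. The part of liver-type signal in the low cortex values of Adh1 was not tested. In a tissue piece, fewer cells of a type and less RNA per cell cannot be told apart. Nothing says that the mice of a group came from separate litters or days, so p-values measure the spread between these samples.

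At T30 all 9 genes were lower than in the ZT6 controls in every library, as the choice requires, and the changes ran from −2.35 ± 0.37 (standard error, SE) for Adh1 to −1.50 ± 0.17 for Cdhr3. The selection fixes this count; of all genes, 16.8% were called lower at T30, and for 17.3% every T30 library lay below every ZT6 library. Adh1 was 5.11-fold lower, Cfap52 3.18-fold, Lrrc29 3.14-fold and Bace2 3.01-fold, and the other 5 lay between 2.99-fold (Pla2g4e) and 2.82-fold (Cdhr3). Ranked by size of fall among all genes, they were the genes numbered 2, 9, 10, 12, 13, 14, 15, 16 and 18. Between them by size lay genes that are not among the 9, such as Ntf3 (−1.85), a neurotrophin, and Gm42462 (−1.52). The next called genes with separate libraries after Cdhr3 were Gm38391 (−1.49), Ighd (−1.47) and 9430097D07Rik (−1.46), so no gap in size sets the 9 apart. Summed markers of striatum were also apart in this contrast, at 249.4 to 288.6 CPM at T30 against 205.0 to 229.5 at ZT6. Their mean log2 CPM, which weights each of the 9 markers equally, was not apart. It was 2.98 to 3.01 at T30, within the 2.93 to 3.03 of ZT6. The part of tissue from striatum in the T30 values was not tested.

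The T27 and ZT3 libraries played no part in choosing the genes and give a separate look at deprivation. After 3 h awake, 7 of 9 genes were lower than in the ZT3 controls at an adjusted p under 0.05 (limma, Benjamini-Hochberg over all genes, two-sided), against 7.84% of all genes called lower. None was higher, the median log2 change of the 9 was −0.996 beside −0.01 for all genes, and for 8 of 9 every deprived library lay below every control, a pattern seen in 17.1% of all genes. The genes that passed were Adh1, Bace2, Pla2g4e, Cdhr3, Cldn22, Lrrc29 and Hes3. Abra and Cfap52 did not pass. The count fell to 4 without the T27 library T27S3 and to 4 without the ZT3 library T3N4, while Pla2g4e, Cdhr3, Lrrc29 and Bace2 passed in all 6 fits that left out 1 library.

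**Figure D1:**
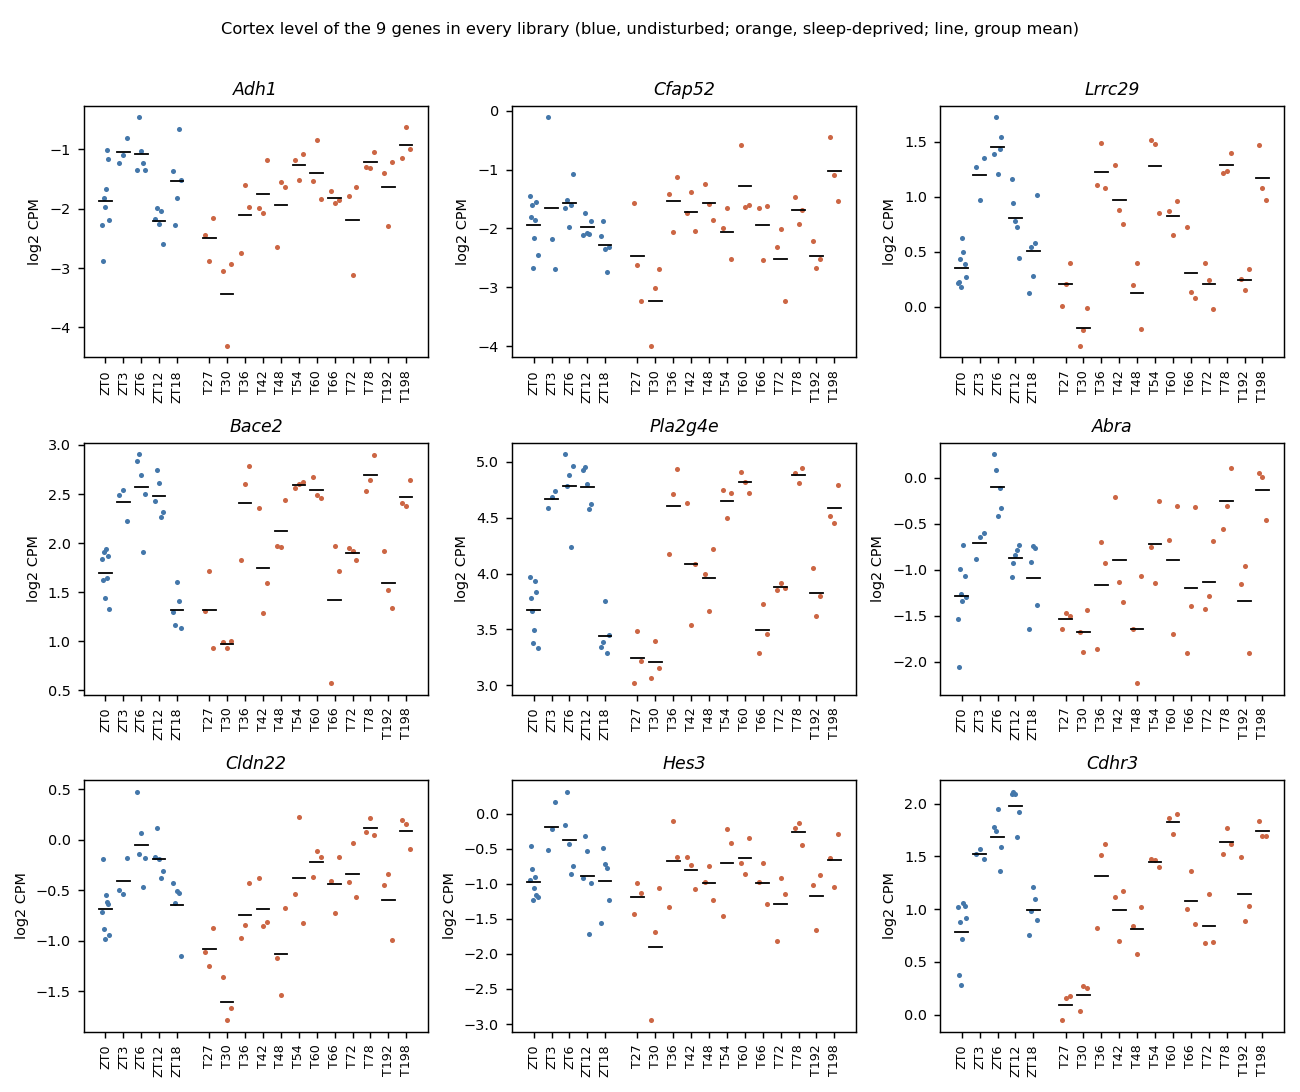
Log2 CPM in cortex (vertical axis) of each of the 9 genes in every library, by group (horizontal axis); blue points are undisturbed mice, orange points sleep-deprived mice, and lines are group means. The T30 mean is the lowest group mean in 8 panels and the T27 mean in that of Cdhr3. In the panels of Adh1, Cfap52, Bace2, Pla2g4e, Abra, Cldn22, Hes3 and Cdhr3, T30 points lie among those of other groups. Most points from T36 on lie at the level of controls taken at the matching hour.

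Among the enzymes, Pla2g4e changed most clearly at 3 h. Its level was 4.58, 4.69 and 4.74 in the 3 ZT3 controls and 3.02, 3.22 and 3.49 in the 3 T27 mice. The groups were far apart, with every deprived library more than a full log2 unit below every control. The change was −1.43 ± 0.19 (SE, n = 3 against 3; limma adjusted p = 3.2e-07), a 2.69-fold lower level. At T30 it read 3.07, 3.15 and 3.40 against 4.24, 4.78, 4.89, 4.97 and 5.07 at ZT6, and the T27 and T30 means, 3.24 and 3.21, were nearly equal.

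Bace2 gave 2.22, 2.49 and 2.55 at ZT3 and 0.93, 1.31 and 1.72 at T27. The groups did not overlap, although the deprived mice were spread more widely than the controls. It was lower by −1.10 ± 0.24 (adjusted p = 9.4e-04, limma). At T30 its 3 libraries lay close together, at 0.94, 0.99 and 1.01, below the ZT6 range of 1.91 to 2.90.

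Adh1 stood at −1.24, −1.10 and −0.80 in the ZT3 controls and at −2.88, −2.44 and −2.16 at T27. The change was −1.44 ± 0.40 (limma adjusted p = 0.0092), and −0.53 on the log2(CPM + 0.5) scale, which compresses low values. All 3 deprived mice were below all 3 controls, but at these low levels the call was lost without T27S3 (adjusted p = 0.056) or without T3N4 (0.0503). At T30 the libraries read −4.31, −3.05 and −2.94 against −1.35 to −0.47 at ZT6, and the lowest of them stood well apart from the other T30 mice.

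Among the genes of cilia, junctions and adhesion, Cdhr3 resembled Pla2g4e in size and tightness. It was at 1.47, 1.52 and 1.57 at ZT3 and at −0.05, 0.15 and 0.18 at T27, with little spread in either group. The change was −1.43 ± 0.18 (limma adjusted p = 2.2e-07). The T30 libraries, at 0.04, 0.25 and 0.28, lay in the same range as those of T27, and the times were not tested against each other.

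Cldn22 read −0.53, −0.50 and −0.17 at ZT3 and −1.25, −1.11 and −0.88 at T27, a smaller step of −0.68 ± 0.24 (adjusted p = 0.042 by limma). The groups did not overlap, but the call was lost in 5 of the 6 fits that left out 1 library. By T30 it had reached −1.78, −1.67 and −1.36, against −0.47 to 0.48 at ZT6.

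Cfap52 showed no clear difference at 3 h. The ZT3 controls read −2.68, −2.18 and −0.11 and the T27 mice −3.23, −2.62 and −1.57. The groups overlapped, and the change of −0.81 ± 0.43 did not pass (adjusted p = 0.21, limma). It rested on the control T3N2, without which it was −0.04 (adjusted p = 0.97). That library also held the most signal of choroid plexus genes among the early groups, with a summed 132.1 CPM over the 7 measured markers against 11.9 and 23.3 in the other ZT3 controls, 7.77 to 9.93 at T27 and 5.48 to 10.2 at ZT6. Among these markers Ttr passed at T27 against ZT3 (−3.35 ± 0.81, adjusted p = 0.0025) and Clic6 too (−2.10 ± 0.49, 0.0018). The part of these cells in the T27 results was not tested. Without T3N2, 6 of 9 genes were called at T27, and Cldn22 was the call lost (adjusted p = 0.068); both remaining ZT3 controls still had higher sums of these markers than any T27 library.

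Among the regulators, Lrrc29 gave 0.97, 1.27 and 1.36 at ZT3 and 0.01, 0.21 and 0.40 at T27. Every deprived mouse was below every control, and the change was −0.996 ± 0.196 (adjusted p = 2.3e-04 in the limma fit). At T30 it read −0.36, −0.21 and −0.01 against 1.21 to 1.72 at ZT6.

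Hes3 was at −0.53, −0.23 and 0.17 at ZT3 and at −1.43, −1.14 and −0.99 at T27. The change of −0.99 ± 0.35 passed narrowly (limma adjusted p = 0.045), and leaving out any of 5 of the 6 libraries ended the call. At T30 the mice differed widely among themselves, at −2.94, −1.68 and −1.07, and the highest of these lay only just below the lowest ZT6 control, at −0.86.

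Abra read −0.89, −0.65 and −0.60 at ZT3 and −1.64, −1.51 and −1.47 at T27. The groups did not overlap, yet the change of −0.83 ± 0.35 did not pass over all genes (adjusted p = 0.099, limma). In a fit of these groups alone it passed, with an adjusted p of 0.039. At T30 it stood at −1.90, −1.68 and −1.44 against −0.42 to 0.25 at ZT6.

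**Figure D2:**
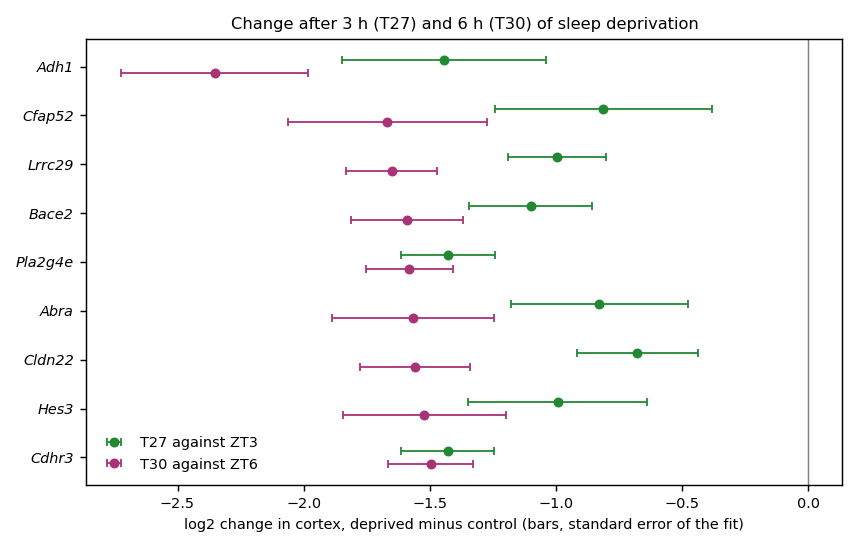
Log2 change in cortex, deprived minus control (horizontal axis), of the 9 genes at T27 and T30, with bars of 1 standard error of the fit. At T27 the values run from −1.44 (Adh1) to −0.68 (Cldn22), and at T30, the contrast on which the genes were picked, from −2.35 to −1.50; Pla2g4e and Cdhr3 differ least between the times.

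Whether the difference lasted was read from the recovery groups. At T36, after 6 h in which sleep was again possible, only Cdhr3 was called lower than the controls of its time, at 0.82, 1.52 and 1.62 all under the ZT12 range of 1.68 to 2.11 (−0.66 ± 0.17, limma adjusted p = 0.0054). This call rested on the lowest mouse: without T36S1 the change was −0.41 (adjusted p = 0.18). The count of 1 of 9 is near the 12.5% of all genes called at T36, and the median change of the 9 was −0.07. Pla2g4e stood at 4.17, 4.71 and 4.94 against 4.58 to 4.96 at ZT12, so the groups overlapped (−0.17 ± 0.17). Lrrc29, at 1.08, 1.11 and 1.49, was above the mean of its controls (0.81), with a change of 0.41 ± 0.18 that did not pass (adjusted p = 0.13).

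The step from deprivation to recovery was tested directly, as the T36 change minus the T27 change, a contrast added after the data were seen. It was positive for all 9 and passed for 4, against 10.1% of all genes called in that contrast: Lrrc29 (1.41 ± 0.27, limma adjusted p = 2.5e-04), Pla2g4e (1.26 ± 0.25, 6.0e-04), Bace2 (1.03 ± 0.33, 0.035) and Cdhr3 (0.77 ± 0.25, 0.038). Adh1 (1.55 ± 0.55, 0.061), Cfap52 (1.25 ± 0.59, 0.18), Hes3 (1.21 ± 0.48, 0.10), Abra (0.54 ± 0.48, 0.54) and Cldn22 (0.12 ± 0.32, 0.88) did not pass. The count fell to 2 when libraries of the second batch were left out, and to 2 in 7 of the 14 fits that left out 1 library (T12N5, T27S2, T27S5, T36S2, T36S4, T3N2 or T3N3); Lrrc29 and Pla2g4e passed in all of these. Cldn22 stood at −0.97, −0.84 and −0.43 at T36 against −0.38 to 0.12 at ZT12, with all deprived mice below all controls (−0.56 ± 0.22, adjusted p = 0.083).

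At T42, during the dark phase after deprivation, only Pla2g4e was called, and it was higher, as 1 of 9 beside 1.03% of all genes. Its mice read 3.54, 4.08 and 4.63 against 3.29 to 3.75 at ZT18, so the groups overlapped (0.64 ± 0.17, limma adjusted p = 0.048). The call was lost in 6 of the 8 fits that left out 1 library (T18N2, T18N3, T18N7, T18N8, T42S2 or T42S6), and without T42S2 the change was 0.37. At T48 none of the 9 was called (1.49% of all genes were); 1, Cldn22, had an unadjusted p under 0.05 (−0.44 ± 0.21), as had 2263 of all 17108 genes. Bace2 at T48 read 1.96, 1.97 and 2.43, above all 8 ZT0 controls (1.33 to 1.94), with a change of 0.42 ± 0.21 and adjusted p = 0.38 (limma).

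From T54 to T198 limma called none of the 9 and 0% of all genes in any of the 7 comparisons. At an unadjusted p under 0.05, there was 1 of the 9 at T60 (1198 of all 17108 genes) and 1 at T192 (1081 of all genes), and none at T54, T66, T72, T78 or T198. The values ran from −0.61 (Abra at T54) to 0.81 (Adh1 at T60). T54, T78 and T198 were set against the same ZT6 controls that chose the genes, so their values are given only as a description. The groups T60, T66, T192 and T198 all lie in the second batch of the labels and the other deprived groups in the first.

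**Figure D3:**
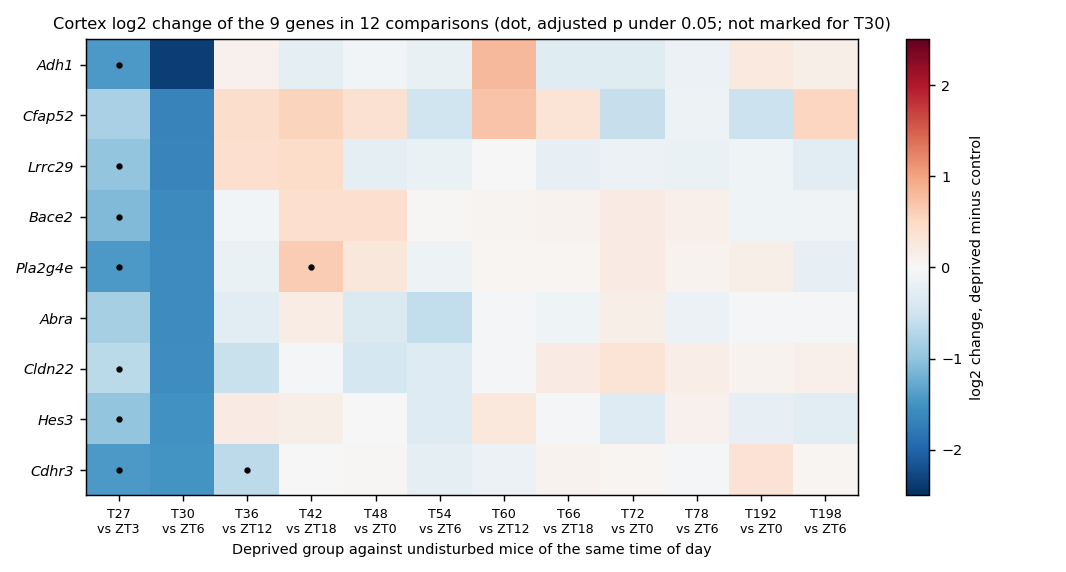
Log2 change of the 9 genes (rows) in the 12 comparisons of deprived mice with controls of the matching hour (columns), blue for lower and red for higher; dots mark a limma adjusted p under 0.05 and are not drawn for T30, on which the genes were picked. All 9 are blue at T27 and T30, more deeply at T30, and colours are mixed and mostly pale from T36. Cdhr3 at T36 (−0.66) is about as blue as Cldn22 at T27 (−0.68). From T36 on there is a dot for Cdhr3 at T36 and for Pla2g4e at T42.

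Undisturbed mice showed how these genes vary over a normal day. Across ZT0, ZT3, ZT12 and ZT18, leaving out the ZT6 libraries that chose the genes, 5 of 9 differed with time of day (limma F test, adjusted p under 0.05), against 35.5% of all genes. The strongest were Pla2g4e (range of group means 1.33, adjusted p = 3.0e-11), Cdhr3 (1.19, 1.5e-09) and Bace2 (1.15, 3.6e-06). All 3 were highest at ZT12. Pla2g4e and Bace2 were lowest at ZT18, 6 h into the active phase, while Cdhr3 was lowest at ZT0. Lrrc29 was highest at ZT3 and lowest at ZT0 (0.85, adjusted p = 3.4e-04), and Adh1 was highest at ZT3 and lowest at ZT12 (1.17, 0.046), a call lost when any of 13 of the 21 libraries was left out. Cldn22 (0.059), Hes3 (0.16), Abra (0.30) and Cfap52 (0.56) did not pass.

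The order of levels in controls can be read in full for Pla2g4e. It was 4.79 ± 0.32 (SD, n = 5) at ZT6, 4.78 ± 0.17 (n = 5) at ZT12 and 4.67 ± 0.08 (n = 3) at ZT3, then 3.67 ± 0.25 (n = 8) at ZT0 and 3.44 ± 0.18 (n = 5) at ZT18. The first 3 did not differ beyond their spread, nor did the last 2, and between these sets lay about 1 log2 unit. Bace2 had the same order of sets, with 2.57 ± 0.40 at ZT6, 2.48 ± 0.20 at ZT12 and 2.42 ± 0.17 at ZT3 above 1.70 ± 0.23 at ZT0 and 1.32 ± 0.19 at ZT18. Cdhr3 went from 1.98 ± 0.19 at ZT12 through 1.68 ± 0.22 at ZT6 and 1.52 ± 0.05 at ZT3 to 0.99 ± 0.18 at ZT18 and 0.78 ± 0.30 at ZT0, and ZT18 and ZT0 overlapped. In all 3 genes the ZT3 and ZT12 samples were high and the ZT18 and ZT0 samples low. The ZT6 means were high too, but the choice of genes used the ZT6 libraries. The place of ZT6 in these orders is therefore only a description.

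In the remaining genes the steps between neighbouring times were mostly within the spread. Lrrc29 went from 1.46 ± 0.19 at ZT6 and 1.20 ± 0.20 at ZT3 to 0.81 ± 0.27 at ZT12, 0.51 ± 0.34 at ZT18 and 0.36 ± 0.16 at ZT0. Abra was at −0.11 ± 0.28 at ZT6 and between −0.71 (ZT3) and −1.29 (ZT0) at the other times, so its ZT6 mean, which the choice of genes used, was its highest. Cldn22 lay between −0.05 ± 0.35 (ZT6) and −0.69 ± 0.26 (ZT0), and Hes3 between −0.19 ± 0.35 (ZT3) and −0.97 ± 0.25 (ZT0). Cfap52 lay between −1.56 ± 0.32 (ZT6) and −2.28 ± 0.31 (ZT18). For Lrrc29, Cldn22 and Cfap52, as for Abra, the highest mean was that of ZT6, which the choice of genes used. Adh1 was at −1.05 ± 0.22 at ZT3 and −1.08 ± 0.37 at ZT6, then −1.53 ± 0.59 at ZT18, −1.88 ± 0.61 at ZT0 and −2.21 ± 0.24 at ZT12, with wide overlap of the middle groups.

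Mice are mostly awake at ZT18 of their own accord, so ZT18 against ZT12 was compared in the controls, a contrast added after the data were seen. These times also differ in time of day and place in the light cycle, which cannot be told apart from wake here. Of the 9, 3 were lower at ZT18 by limma, against 13.7% of all genes: Pla2g4e (−1.33 ± 0.14, adjusted p = 8.3e-10), Bace2 (−1.15 ± 0.19, 4.6e-06) and Cdhr3 (−0.99 ± 0.14, 4.3e-07). Every ZT18 library lay below every ZT12 library in 4 of 9 genes and in 9.52% of all genes. Adh1 did not share this direction (0.68 ± 0.31, adjusted p = 0.098). Set beside each other without a test, since the times of day differ, the T27 and ZT18 means were 1.32 and 1.32 for Bace2, 3.24 and 3.44 for Pla2g4e, 0.09 and 0.99 for Cdhr3, and −2.49 and −1.53 for Adh1.

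Over the 15 cortex groups other than T30 and ZT6, the group means of the 9 genes from the fit correlated positively in all 36 pairs. Pearson's r ran from 0.36 (Cldn22 and Cfap52) to 0.97 (Pla2g4e and Bace2), with a median of 0.66. These r values are descriptions over 15 group means that share libraries, daily rhythm and the T27 fall, and carry no p. The r of ordinary gene pairs is not given for comparison. The partners named next were picked as the highest over all named genes, and such picking alone favours high r. The named genes most like each gene in this measure were Epb41l5 (0.97) and Zkscan2 (0.97) for Pla2g4e, Parpbp (0.98) and Pla2g4e itself (0.97) for Bace2, Guf1 (0.97) and Haus6 (0.96) for Cdhr3, and Nhlrc3 (0.97) and Klf11 (0.96) for Lrrc29. For the low genes they were Vsig10 (0.90) and A930005G22Rik (0.87) for Adh1, Lamp1 (0.93) and Copb2 (0.89) for Cfap52, 9330102E08Rik (0.91) and Neil1 (0.91) for Abra, Dlgap1 (0.92) and Poc1a (0.92) for Cldn22, and Bbs10 (0.92) and Zfp764 (0.91) for Hes3.

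In liver, Adh1, Lrrc29 and Bace2 were 3 of the 13338 named genes measured, and the other 6 genes were not analysed there. The liver table was normalised separately and played no part in the choice. Since 2 dimensions had been removed from its values before deposit, the liver p-values here and below are too small. At T30 Adh1 and Lrrc29 were lower, 2 of 3 against 7.95% of all genes. Both were also called in all 7 alternative fits, which include the removed dimensions as covariates. The highest limma adjusted p in these was 0.036 for Adh1 and 0.014 for Lrrc29. Adh1, an enzyme at the 99.6th percentile of liver levels by CPM, read 10.16, 10.38 and 10.39 at T30 against 10.43, 10.47, 10.61, 10.75 and 10.81 at ZT6. The groups did not overlap but lay close, and the change was −0.37 ± 0.10 (batch-adjusted, limma adjusted p = 0.0091), lost without T30S4 (0.084). Lrrc29 read 1.85, 1.95 and 2.01 against 2.26, 2.47, 2.61, 2.72 and 2.82, a change of −0.67 ± 0.17 (0.0062). Bace2 read 1.78, 1.89 and 2.73 against 2.15 to 2.74, and its groups overlapped (−0.29 ± 0.18, 0.31).

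At T27 none of the 3 was called in liver by limma (1.5% of all genes were), and 1 had an unadjusted p under 0.05, as had 1680 of all 13338 genes: Lrrc29, at 1.60, 1.71 and 1.79 against 1.95, 2.52 and 2.57 at ZT3 (−0.65 ± 0.19, adjusted p = 0.070), which passed when T3N3 was left out. Adh1 changed by −0.15 ± 0.11 and Bace2 by −0.04 ± 0.20. At T36 none was called (3.16% of all genes were), with Adh1 at −0.33 ± 0.10 (adjusted p = 0.051). From T42 to T198 none was called either, in comparisons in which 0% of liver genes passed, or 0.015% at T48. At an unadjusted p under 0.05 there were 2 of 3 at T42, 1 at T48, 1 at T72 and none at the other times, beside 1204, 1346 and 904 of all 13338 genes at T42, T48 and T72.

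Time of day moved Adh1 and Lrrc29 in liver (limma F test over the 5 control times, 2 of 3 called against 52% of all genes). Adh1 was highest at ZT12 (11.07 ± 0.22) and ZT18 (11.06 ± 0.18) and lay between 10.54 and 10.61 in the light (adjusted p = 9.3e-09), whereas in cortex its ZT12 controls were its lowest. Lrrc29 peaked at ZT6 (2.58 ± 0.22) and had its lowest mean at ZT18 (1.62 ± 0.28), with an adjusted p of 6.3e-07. Bace2 did not pass (0.069), and its highest mean was at ZT18 (2.82 ± 0.10), which in cortex was its lowest time. The tissues were not tested against each other.

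**Figure D4:**
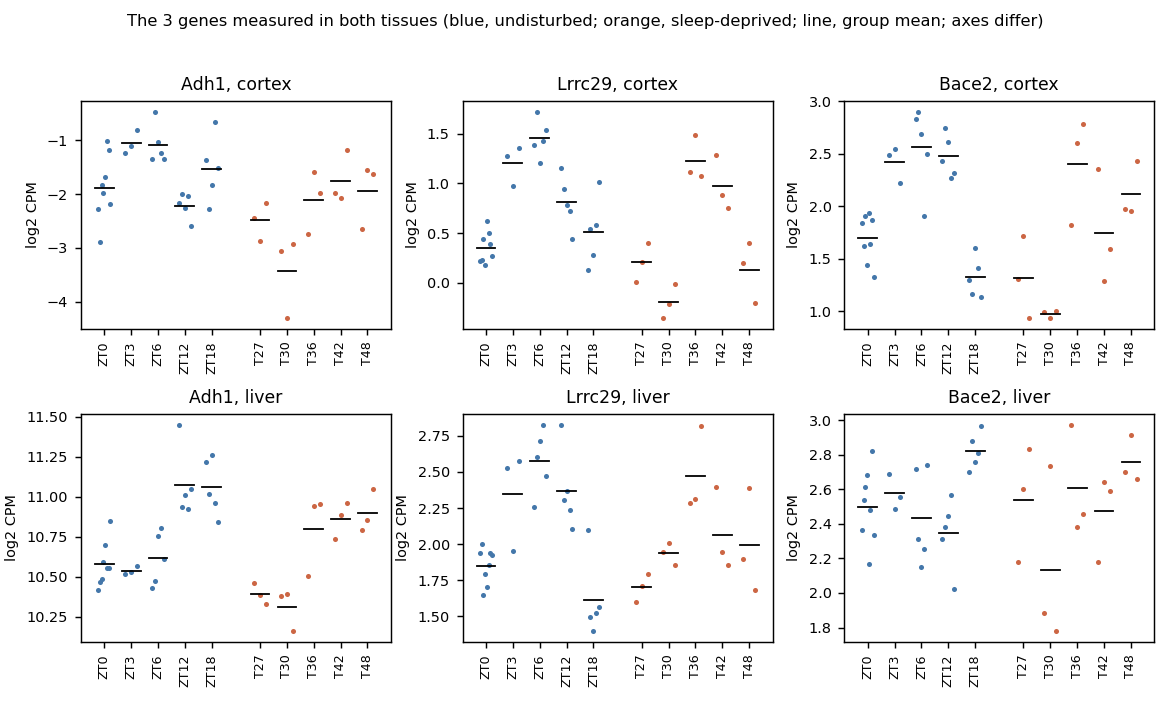
Log2 CPM (vertical axes, which differ) of Adh1, Lrrc29 and Bace2 in cortex (top) and liver (bottom), by group (horizontal axis), with blue points for undisturbed and orange points for sleep-deprived mice and lines for group means. For Lrrc29 the T27 and T30 points lie below their own controls in both tissues. In liver the T30 points of Adh1 lie just under the ZT6 controls, and those of Bace2 overlap the controls.

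The families of 7 of the 9 genes were read next, without the genes themselves, and none moved in 1 direction only at both times. The shares of all genes called in cortex were 8.59% higher and 7.84% lower at T27, and 15.7% higher and 16.8% lower at T30, and the list medians are set beside medians over all genes of −0.01 at both times. Of 18 measured genes of retinoid metabolism and signalling, 2 rose and 1 fell at T27 and 4 rose and 1 fell at T30 (medians −0.03 and 0.07). Rara, a retinoic acid receptor, was higher at both times (0.66 ± 0.15 and 0.76 ± 0.14; limma adjusted p = 0.0015 and 2.5e-05), as was Dhrs3, a retinal reductase, at T27 (0.22). At T30 Cyp26b1, which degrades retinoic acid, was higher (0.99 ± 0.32) and Rdh11 lower (−0.25). Of 18 genes of the secretases and the amyloid precursor family, 1 fell at T27, and 2 rose and 1 fell at T30 (medians 0.01 and −0.01). Aph1c, a gamma-secretase subunit, was the one lower at both times (−0.42 and −0.41), while Bace1 was slightly higher at T30 (0.13 ± 0.04, adjusted p = 0.018), as was Adam9 (0.15).

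Of 23 phospholipases and genes of N-acylethanolamine or endocannabinoid metabolism, 2 rose and 1 fell at T27 and 6 rose and 3 fell at T30 (medians 0.02 and −0.02). Ptgs2, the inducible cyclooxygenase, was higher (1.27 ± 0.17 at T27 and 1.09 ± 0.16 at T30; limma adjusted p = 7.3e-07 and 5.9e-07). Abhd6, a monoacylglycerol hydrolase, was higher too (0.23 and 0.31), and Daglb, a diacylglycerol lipase, was lower at T30 (−0.41 ± 0.06).

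Of 32 genes of the Notch pathway and its repressors, 6 rose and 3 fell at T27 and 7 rose and 5 fell at T30 (medians −0.01 and 0.02). Maml3, a Notch coactivator, was higher at T30 (1.29 ± 0.14) as was the receptor Notch4 (0.78), Hes6 was lower (−0.49 ± 0.10, limma adjusted p = 8.0e-05), and at T27 Heyl was lower (−0.70) and Numb higher (0.25). Of 16 claudin and tight junction genes, 1 rose and 1 fell at T27 and none rose and 2 fell at T30 (medians −0.03 and −0.06). Cldn23 was lower at both times (−1.02 and −0.85), Cldn34c1 at T30 (−0.81), and the scaffold Tjp1 was higher at T27 (0.16). Of 23 F-box leucine-rich and partner genes, 1 rose and 2 fell at T27 and 7 rose and 4 fell at T30 (medians 0.02 and 0.02). Fbxl4 was lower at both times (−0.63 and −0.74), Fbxl21 lower at T27 (−0.42), and Fbxl14 (0.35) and Fbxl18 (0.18) higher at T30. Of 17 cadherin-related genes, 1 rose and 1 fell at T27 and 2 rose at T30 (medians −0.04 and 0.02), among them Ret, higher at both times (0.45 and 0.54), Fat2, lower at T27 (−1.22), and Clstn3, higher at T30 (0.27).

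Markers of the cells a cortex piece could hold were read in the same way, since Cfap52 and Cdhr3 are known from ciliated cells. For all marker lists, the shares of all genes to set beside the counts are 8.59% higher and 7.84% lower at T27. At T30 they are 15.7% higher and 16.8% lower. Of 27 measured markers of motile cilia and ependymal cells, 1 fell at T27, and 1 rose and 5 fell at T30 (medians −0.09 and −0.19). Foxj1, the master regulator of motile cilia, was higher at T30 (0.75 ± 0.15, limma adjusted p = 1.3e-04), while Rsph1 was lower at T27 (−0.67) and Cfap65 (−0.43) and Odf3b (−1.14) lower at T30. Summed over the list, the level was 145.4 to 155.0 CPM at ZT3 and 134.5 to 152.8 at T27, and 136.6 to 159.6 at ZT6 and 143.5 to 152.4 at T30 and these ranges overlapped at both times. The mean log2 CPM of the same 27 markers, which weights each marker equally, was 0.84 to 0.99 at T27 and lay wholly below the 1.02 to 1.20 of ZT3, while at T30 it was 0.86 to 0.89, within the ZT6 range of 0.85 to 1.30. The part of these cells in the falls of Cfap52 and Cdhr3 was not tested. Of the 7 choroid plexus markers, 4 fell at T27, and 1 rose (Prlr, 1.19) and 1 fell (Aqp1, −1.10) at T30 (medians −1.17 and 0.05). Their sum was 7.21 to 9.77 CPM at T30, within the ZT6 range.

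Of 14 markers of meninges and fibroblasts, 3 fell at T27 (Slc22a6, −0.74, Slc6a13, −0.55, and Aldh1a2, −0.55, which is also on the retinoid list) and none passed at T30 (medians −0.35 and −0.11). Their summed CPM was 180.1 to 223.8 at ZT3 and 156.8 to 169.8 at T27, without overlap, and 162.0 to 190.6 at ZT6 and 147.2 to 190.2 at T30. Whether these cells had a part in the T27 falls was not tested. In the remaining lists, 1 of 10 endothelial markers fell at T27 (Slco1a4, −0.41) and 2 rose and 1 fell at T30, and of 10 mural cell markers 2 fell at T27 and 1 at T30 (Pdgfrb, −0.33 and −0.26). Excitatory neuron markers, 10 genes, held 2 rises and 2 falls at T27 and 1 rise and 2 falls at T30, with Neurod6 higher at both (0.45 and 0.44). Of 10 inhibitory neuron markers 1 rose at T27 (Lhx6, 0.17) and 3 at T30. Of 9 striatal markers 1 fell at T27 (Gpr6, −1.26), and 2 rose (Pde10a, 0.69, and Tac1, 0.33) and 1 fell at T30. Of 10 markers of thalamus and hippocampus 1 fell at T27 (Ntng1, −0.23) and none passed at T30, and none of 5 red blood cell markers passed at either time. Of 2 hepatocyte markers 1 fell at T27, which was Ttr, also a choroid plexus marker, and none passed at T30.

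Genes that overlap the 9, or lie within 50000 bases of them, were checked next, because no source used here says whether counting used strand, so reads of overlapping genes cannot be assigned with certainty. In build GRCm38, Cldn22 (chr8:47824482-47825476, plus strand) lies wholly inside the span of Wwc2 on the other strand, and all 995 of its exon bases are also exon bases of Wwc2. Wwc2 differed by −0.09 ± 0.04 at T27 and −0.10 ± 0.04 at T30 (limma adjusted p = 0.13 and 0.055). These values missed the threshold but are negative like those of Cldn22, and the part of shared reads in either was not tested. Cfap52 (chr11:67924806-67965651, minus strand) shares 194 exon bases with 9130017K11Rik on the plus strand. That transcript was lower at T27 (−0.66 ± 0.22, limma adjusted p = 0.031) and at T30 (−1.21 ± 0.20, 6.4e-06), and Usp43, 2653 bases away on the same strand as Cfap52, was lower as well (−1.15 ± 0.17 and −0.89 ± 0.16). The Cfap52 value is therefore uncertain where these overlap.

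The other 7 genes share no exon base with a measured gene. Adh1 lies at chr3:138260991-138290698 (plus strand), with no measured gene within the window. Pla2g4e (chr2:120166412-120245335, minus), Abra (chr15:41864076-41869720, minus) and Cdhr3 (chr12:33033796-33092875, minus) each have 1 measured neighbour, and of these only that of Cdhr3, F730043M19Rik, was called, at T30 (−0.18). Bace2 (chr16:97356742-97442936, plus) lies 4099 bases from Mx1, an interferon-induced gene on the opposite strand, which was not called at T27 (−0.03 ± 0.34) and lower at T30 (−1.49 ± 0.32). Hes3 (chr4:152285972-152291662, minus) has 6 measured neighbours, of which none was called at T27, and 2 were lower and 3 higher at T30, none by more than 0.36.

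Lrrc29 (chr8:105312265-105326278, minus) lies in a dense region with 13 measured neighbours. Of these 5 were higher at both times, namely Plekhg4, 46996 bases away (1.44 ± 0.21 at T27 and 2.18 ± 0.19 at T30; limma adjusted p = 2.1e-06 and 4.3e-12), Slc9a5 (0.41 and 0.70), Fhod1 (0.42 and 0.49), E2f4 (0.24 and 0.22) and Tmem208, which starts 76 bases away on the opposite strand (0.25 and 0.27). Another 2, Hsf4 (−0.21) and Nol3 (−0.43), were lower at T30 alone by this test. Over all 27 neighbours of the 9 genes, 2 were lower and 5 higher at T27, and 8 lower and 8 higher at T30. Of all genes, 7.84% were called lower and 8.59% higher at T27, and 16.8% lower and 15.7% higher at T30.

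Promoters of the 9 genes, where at hand, were searched for short motifs. RefSeq promoters of build GRCm38.p6, from 250 bases before to 50 after a gene's start, were at hand for 5 of the 9: Adh1, Cfap52, Pla2g4e, Cldn22 and Cdhr3. Those of the 3 genes with the largest falls in log2 CPM at T27 are shown 5′ to 3′ to let their composition be compared, with E-box cores (CANNTG, read on both strands) in capitals. They are chr3:138277335-138277634 (plus strand, inside the annotated span of the gene) for Adh1, chr2:120245286-120245585 (minus) for Pla2g4e and chr12:33092826-33093125 (minus) for Cdhr3.
Adh1: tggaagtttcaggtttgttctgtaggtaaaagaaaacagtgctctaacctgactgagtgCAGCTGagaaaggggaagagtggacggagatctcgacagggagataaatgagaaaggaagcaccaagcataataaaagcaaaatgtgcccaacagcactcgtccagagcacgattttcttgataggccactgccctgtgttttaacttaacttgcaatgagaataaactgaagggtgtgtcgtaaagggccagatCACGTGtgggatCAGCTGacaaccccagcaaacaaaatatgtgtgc
Pla2g4e: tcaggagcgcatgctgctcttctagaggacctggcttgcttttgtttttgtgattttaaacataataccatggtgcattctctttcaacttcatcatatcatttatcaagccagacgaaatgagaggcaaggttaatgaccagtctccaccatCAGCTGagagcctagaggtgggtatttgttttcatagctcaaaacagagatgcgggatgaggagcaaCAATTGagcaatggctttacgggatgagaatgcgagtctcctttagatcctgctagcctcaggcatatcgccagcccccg
Cdhr3: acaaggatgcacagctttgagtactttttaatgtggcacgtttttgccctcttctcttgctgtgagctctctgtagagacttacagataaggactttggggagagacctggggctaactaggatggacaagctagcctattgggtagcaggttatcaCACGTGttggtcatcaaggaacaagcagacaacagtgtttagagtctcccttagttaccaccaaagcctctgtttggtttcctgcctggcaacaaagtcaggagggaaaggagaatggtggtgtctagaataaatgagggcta

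A CANNTG core occurs in 72.1% of all 27025 promoters, so its presence in 4 of the 5 (3 in Adh1, 2 in Pla2g4e, 1 each in Cdhr3 and Cfap52, none in Cldn22) is common. The form CACGTG, which overlaps it and is bound by clock activators and related factors, is in 7.24% of promoters and was found once in Adh1, at position 5 from the start, and once in Cdhr3, at −93. The cyclic AMP response element TGACGTCA (1.88% of promoters) was in none of the 5, and its short form TGACG (21.0%) was in Cfap52 alone of the 5. The D-box TTATGNAA (3.52%) and the ROR element AGGTCA (16.0%) were in none, the RFX site GTTGCC (12.7%) was in Cdhr3 at −6, and the hypoxia core ACGTG (19.7%), which overlaps CACGTG, was in Adh1 and Cdhr3. No motif was shared by all 5. GC content was 45.3% to 51.3% in the 5 and CpG counts were 2 to 8, where the middle of all promoters was 52.7% and 7. A match is only a match of letters in this window.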

How the data were processed

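RNA-seq values of 62 cortex and 62 liver libraries were used. Per the submitters' processing notes, reads were processed with fastp, STAR 2.7.0e and edgeR on GRCm38 (mm10); order and settings are not given in the sources used here. Per the labels' protocols, RNA was purified with a miRNeasy kit and stranded TruSeq mRNA libraries were read single-end on an Illumina sequencer; that text describes liver, and the cortex libraries are labelled as coming from an earlier study. The deposited values are log2 CPM, normalised by tissue, and 1 dimension in cortex and 2 in liver had been removed before deposit, so liver p-values are too small. In cortex the fitted T30 changes of the 9 genes equal the plain differences of group means, so the batch term moved none of them. Entries without a gene name (77 of 17185 in cortex with 0.0618% of CPM, 35 of 13373 in liver with 0.0337%) were left out. Back-transformed totals were 979177 to 1020372 CPM per cortex library and 919743 to 1070244 per liver library, and over 97 replicate pairs per tissue the root mean square difference was 0.23 to 0.38 in cortex and 0.33 to 0.60 in liver, so none was a copy.

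Log2 values were tested as deposited with limma 3.58.1 in R 4.3.3 (17 groups and batch, 44 residual degrees of freedom, mean trend), two-sided, with Benjamini-Hochberg adjustment over all named genes of a tissue, at 0.05 and with no pseudocount or filter. The script was tested on simulated data. The 9 genes, the gene lists and the tests were chosen with earlier results of these data known. The result of 1 gene list is not reported here. Named besides the 9 were, per gene, the 2 most alike in group means, neighbours within 50000 bases, the 3 next fallers at T30 and per list up to 3 genes that passed at T30 and 2 at T27 by smallest p. Alternatives were log2(CPM + 0.5), no trend, no batch term, batch 1 libraries alone, centred libraries, a fit of each pair of groups alone (cortex), removed dimensions as covariates (liver), leaving out the lowest 20% of genes, and leaving out each library.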

Additional observations from a re-analysis of the deposited data

Results flagged for a closer look

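In 48 groups of 4 to 10 libraries, 3 held a library with a large gap to the rest, where about 1 in 20 groups would be picked by chance. Cldn22 in cortex was low in the ZT18 control T18N8 (−1.15). In liver, Adh1 was high in the ZT12 control T12N1 (11.45) and Lrrc29 high in the ZT18 control T18N2 (2.10).

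For 4 genes in cortex the change at T36 differed from the change at T27 by limma's test of the difference: Lrrc29 (1.41), Pla2g4e (1.26), Bace2 (1.03) and Cdhr3 (0.77). The Bace2 call was lost in 7 and the Cdhr3 call in 9 of the 14 fits that left out 1 library.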

How the results depend on the processing

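No paired analysis was possible because the groups compared hold different mice, and the animal codes shared by the tissues join tables that were normalised separately. Leaving out single libraries gave counts of called genes of 4 to 6 at T27, 0 to 2 at T36 and 0 to 1 at T42 in cortex, 2 to 6 for the T36 change minus the T27 change, and in liver 0 to 1 at T27, 1 to 3 at T30 and 0 to 1 at T36. With the lowest 20% of genes left out, 4 of 4 remaining genes were called at T27, since the other 5 were then not tested, and the liver count at T36 was 1. The T30 median was −0.83 on the log2(CPM + 0.5) scale, which compresses low values. At T42 the count was 0 with batch 1 libraries alone, without a trend and with the groups fitted alone, and the T36 minus T27 count was 2 with batch 1 libraries alone; the cause was not tested. No called value changed direction under any alternative run. On log2(CPM + 0.5) the T27 changes of the low genes were smaller, at −0.53 for Adh1, −0.55 for Hes3, −0.40 for Abra, −0.37 for Cldn22 and −0.33 for Cfap52. Cldn22 at T27 was not called on that scale (adjusted p = 0.058) or in a fit of its groups alone (0.069). Low levels limit Cfap52, Adh1, Hes3 and Abra most, and with 3 mice per deprived group a change that missed the threshold may still be present.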
